A study of Xenopus laevis with 27 samples.

Results

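Genes of the fibroblast growth factor (FGF) and bone morphogenetic protein (BMP) systems were followed through regeneration of the tail of the frog Xenopus laevis, by bulk RNA sequencing at 9 times after amputation. Members were chosen by symbol: the ligand and receptor families named fgf, fgfr, bmp and bmpr, the secreted BMP antagonists noggin (nog) and gremlin (grem1), and the Id genes. No symbol id1 was found, so the Id genes here are the copies of id2, id3 and id4. The symbols matched 68 of the 29776 genes in the count table, 35 on the FGF side and 33 on the BMP side. Of these, 41 passed the filter on low counts and were tested, 19 FGF and 22 BMP members among 22268 genes tested in all. By role, the FGF members were 20 ligands (7 tested), 6 intracellular homologous factors (3 tested), 7 receptors (7 tested) and 2 copies of fgfr1op2, which shares only a name (2 tested). The BMP members were 16 ligands (7 tested), 6 receptors (5 tested), 3 antagonists (2 tested), 6 Id genes (6 tested) and 2 copies of the protease gene bmp1 (2 tested). This species carries most genes as a pair, one on its long and one on its short subgenome (endings .L and .S), and the counting may have divided the reads of near-identical copies between both.

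The groups were amputated tails, in 3 libraries (A to C) per time. The times after amputation were 0, 30, 60 and 90 minutes, written mpa, then 3 and 6 hours, written hpa, and 1, 3 and 7 days, written dpa. The 60 mpa time rests on the sample labels alone, as the study's own list of times leaves it out. Each library held RNA of 20 embryos raised from eggs fertilised in vitro and kept in dilute saline with gentamycin; the labels give no strain, genotype, stage number or unamputated group. The libraries are described as biological triplicates, but no clutch is named, and the p-values below measure only how far these libraries spread, which may be technical. The tails collected at 0 mpa were the baseline of 8 comparisons, which therefore share their 3 control libraries.

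FGF ligands are secreted proteins that bind receptor tyrosine kinases at the cell surface and act through the MAP kinase cascade, whose targets include the feedback inhibitors dusp6 and sprouty and the transcription factors etv4 and etv5. BMP ligands bind paired type I and type II serine/threonine kinase receptors, which phosphorylate Smad proteins and thereby switch on target genes such as the Id and Msx genes, while noggin, chordin and gremlin bind the ligands outside the cell. Both pathways are known to be required for regrowth of the tail in Xenopus tadpoles.

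Total counts were 4186706 to 6332675 in 24 libraries, while 6 hpa C held 1207557, 90 mpa C 367958 and 7 dpa C 19187, where 1 read equals 17.3 CPM. Libraries 1 dpa B and 3 dpa B held reads of fewer genes (17532 and 19983) than the other libraries of their depth (21302 to 25790). Many results below are given with and without these 5 libraries. Leaving them out removes 1 library each at 90 mpa, 6 hpa and 1, 3 and 7 dpa. It also alters the estimate of spread shared by all times, so adjusted p can move in comparisons that hold none of them. Muscle markers were abundant in the labelled tissue, tail: their summed level had a median of 159614 CPM at 0 mpa and 8181 CPM at 7 dpa, and 16 of 22 fell at 1 dpa, 21 at 3 dpa and 21 at 7 dpa. At these 3 times 1.58%, 4.98% and 5.31% of all genes were called lower. At 6 hpa, 10 of 16 epidermal and 4 of 12 leukocyte markers were higher than at 0 mpa, against 3.33% of all genes. At 3 dpa 8 of 14 notochord and cartilage markers were higher and 3 lower, against 4.24% and 4.98% of all genes. Their summed level nonetheless fell, from a median of 10208 CPM at 0 mpa (lowest 8786) to 6172 CPM at 3 dpa (highest 6902). Erythroid markers were uneven at 0 mpa, at 995 to 4872 summed CPM, with a median of 8488 CPM at 30 mpa. Of 10 tested, 7 were lower at 3 dpa and 8 at 7 dpa. Of 19 neural markers, 6 were lower and 1 higher at 7 dpa. In bulk RNA of tissue labelled as tail, fewer cells of a type and less RNA per cell cannot be told apart. The part of these tissue shifts in the results below was not tested.

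Across the 9 times, 2 of 19 FGF members changed in the joint test (fgfr3.S and fgfr4.L), where 15.8% of all genes tested changed. On the BMP side 8 of 22 members changed: the ligands bmp4.S, bmp5.L and bmp7.1.S, the type II receptor bmpr2.L, the antagonist grem1.L, the protease gene bmp1.L and both copies of id2. Without the 5 libraries named above the counts were 4 of 20 FGF and 16 of 25 BMP members, against 27.2% of all genes. At an unadjusted p under 0.05 the joint test held 3 of 19 FGF and 14 of 22 BMP members, where 5752 of 22268 genes passed.

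Compared with 0 mpa, no member was called at 30 mpa by edgeR or DESeq2, though 1 FGF and 2 BMP members had an unadjusted p under 0.05, as had 825 of 22268 genes. At that time 0.377% of all genes were called higher and 0% lower. At 60 mpa, 1 BMP member was higher, id2.S, against 1.15% of all genes higher and 0.00449% lower. At 90 mpa, id2.S was higher and nog.L lower, against 2.62% and 0.754% of all genes. At 3 hpa, id2.S was again higher, against 3.12% of all genes higher and 0.31% lower. At 6 hpa, id2.S was higher and fgfr4.L lower, against 3.33% and 0.328% of all genes. Every higher call among the members up to 6 hpa was thus the same Id gene, id2.S.

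From 1 dpa on id2.S was no longer called. At 1 dpa, bmpr2.L was higher, against 2.99% of all genes higher and 1.58% lower. At 3 dpa, bmp1.L and bmpr2.L were higher and fgfr4.L lower, against 4.24% and 4.98% of all genes. At 7 dpa, grem1.L was lower, against 2.63% of all genes higher and 5.31% lower. No member was called by edgeR or DESeq2 between 1 and 3 dpa or between 3 and 7 dpa. Of all genes, 0.13% were called higher and 0.593% lower in the first of these steps, and 0.126% and 0.723% in the second. At an unadjusted p under 0.05 the first step held 2 FGF and 1 BMP members, where 1897 of 22268 genes passed. The second held 0 and 1, where 1921 genes passed.

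**Figure D1:**
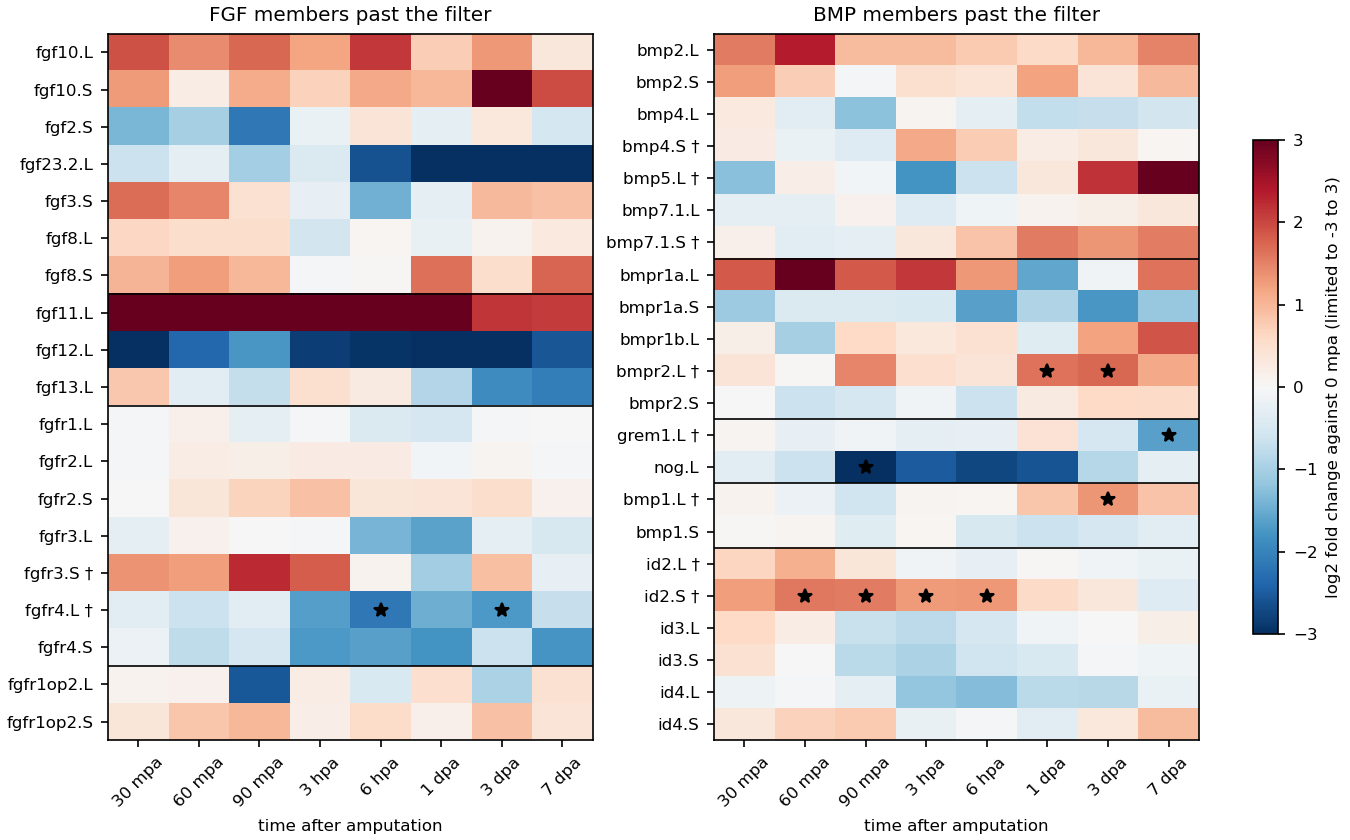
Fitted log2 fold changes against 0 mpa of the 19 FGF and 22 BMP members past the filter (rows, grouped by role between black lines: ligands first) at the 8 later times (columns). Red is higher and blue lower than at 0 mpa, stars mark an adjusted p under 0.05, and daggers mark the 2 FGF and 8 BMP members that changed in the joint test; strong colours without a star belong mostly to genes with few reads.

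The median log2 fold change of the FGF members stayed near that of all genes at 3 dpa (0.11 against 0.05) and at 7 dpa (-0.01 against -0.01). For the BMP members it was 0.25 at 3 dpa and 0.25 at 7 dpa. The FGF median was lowest at 1 dpa, at -0.29, where the BMP median was 0.07 and that of all genes -0.01.

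FGF ligands were scarce in these libraries. None of the 7 ligand genes tested changed in the joint test, and the 16 FGF members left out by the filter held 9 to 118 reads each over all 27 libraries, with at most 3.99 CPM at their highest time. The copies of fgf8, an organiser of limb and tail outgrowth in vertebrates, were read at low levels at all times: fgf8.S had a mean of 2.84 CPM at 0 mpa, and 11.7 and 9.14 CPM in 7 dpa A and B. In the edgeR fit over all libraries fgf8.S was not called (joint adjusted p = 0.380, lowest against 0 mpa at any time 0.212). Without the 5 libraries its log2 fold change at 7 dpa was 1.88 ± 0.66 (SE, edgeR adjusted p = 0.0455). This was the only 1 of 14 alternatives that called it at 7 dpa (range 0.0455 to 0.585).

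The reads of fgf20, which in zebrafish is needed to start fin regeneration, lay late in the time course. This gene and fgf10 were chosen after their values were seen. No read of fgf20.L was found in the 3 libraries at 0 mpa, 30 mpa, 90 mpa, 3 hpa or 6 hpa. Library 60 mpa A held 4 reads, 1 dpa A and C held 5 and 6, and 7 dpa A and B held 10 and 4. At 3 dpa the libraries held 13, 44 and 7 reads (2.02, 8.58 and 1.37 CPM), so all 3 lay above all 3 at baseline, and library B, one of the 5 named above, carried most of the reads. Against a floor of 3 counts over the 3 libraries at 0 mpa, fgf20.L was at least 16.4-fold higher at 3 dpa, and at least 7.38-fold higher without library B. The gene was under the filter, which asks for fewer libraries once 1 is left out. Without the filter its adjusted p was 4.25e-04 in the joint test and 0.0388 at 3 dpa. Over the 7 alternatives that tested it at 3 dpa it was 0.0388 to 0.140. With the filter kept, fgf20.L was tested only in fits that held both 3 dpa A and B, where its reads were most. The range therefore holds no fit that left out only 3 dpa A or only 3 dpa B. As the gene was also picked by its values, these adjusted p cannot decide whether it rose. Without the filter and the 5 libraries together the joint adjusted p was 0.0621. Its copy fgf20.S showed 5, 0 and 4 reads at 3 dpa and 7, 0 and 0 at 7 dpa, and none elsewhere.

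For fgf10, a mesenchymal ligand of limb and lung buds, the S copy had 27, 46 and 26 reads at 3 dpa (4.202, 8.97 and 5.102 CPM) and 1, 1 and 7 reads at 0 mpa (0.24, 0.25 and 1.51 CPM). The groups did not overlap, but the gene did not pass the test over the time course (adjusted p = 0.604). Throughout, overlap of libraries was examined for the members only, so the share of all genes without overlap is not known. A lack of overlap therefore describes the libraries and is not a test. The intracellular homologous factors fgf11, fgf12 and fgf13, which act on sodium channels and are not secreted, gave no call. Their fold changes rest on few and uneven reads: fgf12.L had 0, 46 and 18 reads in the 3 libraries at 0 mpa.

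The FGF receptors carried both FGF calls. For fgfr4.L, the type 4 receptor, the libraries at 0 mpa stood at 23.8, 17.1 and 13.6 CPM. At 3 hpa they stood at 6.78, 6.14 and 4.497 CPM, and at 6 hpa at 4.04, 3.96 and 4.37 CPM. All 6 lay below all 3 at baseline. At 1 dpa the libraries were at 5.67, 2.67 and 11.2 CPM, at 3 dpa at 3.89, 6.44 and 6.08 CPM, and at 7 dpa A and B stood at 11.7 and 10.0 CPM, still below the baseline. Expression of fgfr4.L fell by 2.15 ± 0.61 (SE) on the log2 scale at 6 hpa (edgeR adjusted p = 0.0286) and by 1.73 ± 0.57 at 3 dpa (adjusted p = 0.0432). The change over the 9 times had an adjusted p of 0.0266. At 3 hpa the log2 fold change was -1.64 ± 0.57 with an adjusted p of 0.119, and 0.0126 without the 5 libraries (range over 14 alternatives 0.00584 to 0.429).

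Single libraries decided the adjusted p of fgfr4.L, with the direction kept. At 6 hpa it lay at 0.159 when 0 mpa A was left out, at 0.0758 when 0 mpa B was, and at 0.116, 0.129 and 0.0819 without 6 hpa A, B and C in turn. At 3 dpa it was 0.175, 0.0916 and 0.0545 without 0 mpa A, B and C, and 0.146, 0.0684 and 0.0871 without 3 dpa A, B and C, and it was 0.0654 without the filter. The joint call was lost without 0 mpa A (0.0870), 0 mpa B (0.0526), 3 hpa C (0.0543), 6 hpa A (0.0610), 6 hpa B (0.0603) or 3 dpa A (0.0514). The fold change lay between -2.32 and -1.90 at 6 hpa and between -1.91 and -1.49 at 3 dpa over 14 alternatives each.

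The type 3 receptor gene fgfr3.S had its higher means from 30 mpa to 3 hpa. Its libraries held 0.24, 9.58 and 3.02 CPM at 0 mpa and 13.0, 7.42 and 12.1 CPM at 30 mpa. At 60 mpa the libraries held 5.79, 8.23 and 16.6 CPM, and like those at 30 mpa they overlapped the baseline. They held 16.5, 14.0 and 36.3 CPM at 90 mpa and 14.5, 18.6 and 12.1 CPM at 3 hpa, all above the 3 at baseline. Later values were 3.52, 1.86 and 10.9 CPM at 6 hpa, and 2.67, 0.67 and 2.68 CPM at 1 dpa. They were 2.96, 13.3 and 7.85 CPM at 3 dpa, and 3.57 and 3.77 CPM in 7 dpa A and B. The 36.3 CPM of 90 mpa C are 12 reads. Over the 9 times fgfr3.S changed with an adjusted p of 0.00721, and this call was kept without any single library (up to 0.0170). No single time passed against 0 mpa: at 90 mpa the log2 fold change was 2.25 ± 0.74 (adjusted p = 0.0800) and at 3 hpa 1.82 ± 0.71 (adjusted p = 0.201). Without 0 mpa B, the highest of the baseline libraries, these were 3.59 (adjusted p = 0.0155) and 3.17 (adjusted p = 0.0275).

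The L copy of the same receptor had its lowest values at 6 hpa and 1 dpa, though the ratio of the copies did not pass the permutation test described below (adjusted p = 0.502). Library values of fgfr3.L were 25.2, 26.7 and 22.7 CPM at 0 mpa, 28.9, 22.4 and 21.1 CPM at 3 hpa, and 11.4, 10.5 and 4.37 CPM at 6 hpa. They were 7.998, 1.33 and 14.7 CPM at 1 dpa and 23.8, 14.2 and 22.8 CPM at 3 dpa. The 6 libraries at 6 hpa and 1 dpa thus lay below all 3 at baseline, and the gene just missed the joint test (adjusted p = 0.0750). It passed without 90 mpa C (adjusted p = 0.0135) and without 1 dpa C (0.0211), and its log2 fold change at 1 dpa was -1.61 ± 0.51 (adjusted p = 0.0533, and 0.0113 without 1 dpa C).

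For fgfr2.S, the S copy of the type 2 receptor that binds ligands of the fgf10 group, libraries stood at 58.2, 53.4 and 72.3 CPM at 0 mpa and at 109, 119 and 112 CPM at 3 hpa. The groups did not overlap. The log2 fold change of 0.89 ± 0.32 missed the threshold in the fit over all libraries (edgeR adjusted p = 0.148) and passed it without the 5 libraries (adjusted p = 7.44e-04, range over 14 alternatives 7.44e-04 to 0.498). The genes fgfr1.L, fgfr2.L and fgfr4.S gave no call in the joint test (adjusted p = 0.796, 0.996 and 0.655). Neither copy of fgfr1op2, named for a fusion partner of FGFR1 in human leukaemia, was called.

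**Figure D2:**
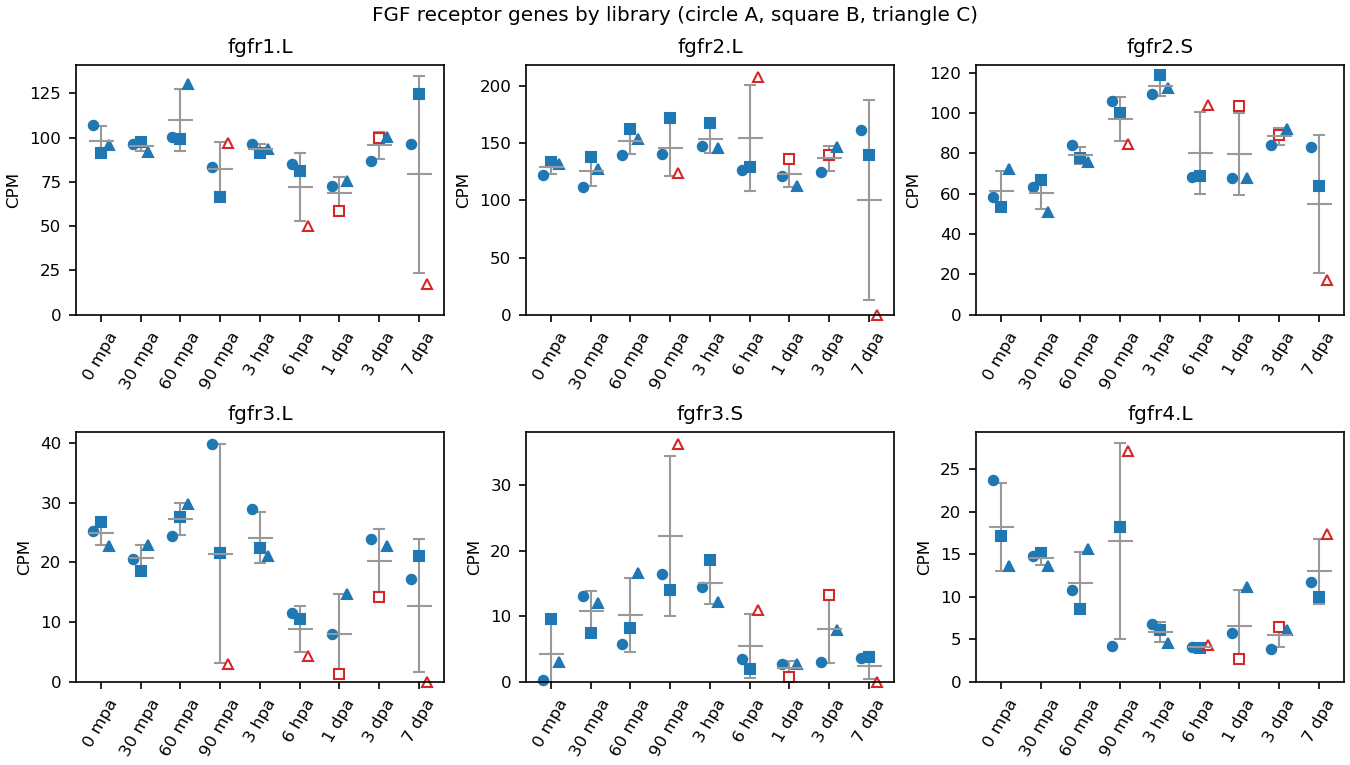
Levels of 6 FGF receptor genes in CPM (vertical axis, starting at 0) in each of the 27 libraries by time; grey marks are the mean and SD of 3 libraries, and open red symbols are 7 dpa C, 90 mpa C, 6 hpa C and libraries B of 1 and 3 dpa. The 3 libraries of fgfr4.L at 6 hpa sit near 4 CPM, below all 3 at 0 mpa, while fgfr2.S reaches 109 to 119 CPM at 3 hpa.

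Other genes of the FGF pathway, taken from a list of 38 with 35 tested, gave 10 calls in the joint test, where 15.8% of all genes changed. In the order of the times from 60 mpa to 7 dpa, 1, 3, 3, 2, 1, 4 and 2 of the 35 were higher than at 0 mpa, and 1 was lower at 3 dpa. Of all genes 1.15%, 2.62%, 3.12%, 3.33%, 2.99%, 4.24% and 2.63% were called higher at these times. Both copies of dusp6, the phosphatase that switches off ERK and is a common readout of FGF signalling, rose. The mean of dusp6.L went from 18.1 CPM at 0 mpa to 115 CPM at 3 hpa (log2 fold change 2.67 ± 0.38, adjusted p = 5.59e-07), and it was still 1.88 ± 0.37 higher at 3 dpa (adjusted p = 2.38e-04). The change of dusp6.S at 3 hpa was 2.41 ± 0.45 (adjusted p = 1.30e-04). The FGF-binding protein gene fgfbp2.S rose by 1.16 ± 0.35 at 90 mpa (adjusted p = 0.0464). For etv4.L, a transcription factor downstream of FGF receptors, the rise came at 3 dpa, at 1.12 ± 0.35 (adjusted p = 0.0291).

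On the BMP side, 3 of the 7 ligand genes tested changed over the time course. The mean was highest at 3 hpa for bmp4.S, at 7 dpa for bmp5.L and at 1 dpa for bmp7.1.S. The last of these rests on 1 dpa B, as bmp7.1.S was higher in 7 dpa A and B than in 1 dpa A and C. The gene bmp4.S, one copy of the ligand that patterns ventral and posterior tissue in the frog embryo, had 36.0, 24.2 and 34.3 CPM at 0 mpa. It reached 67.4, 82.8 and 57.3 CPM at 3 hpa and 55.4, 62.2 and 40.4 CPM at 6 hpa, all 6 above baseline, and stood at 34.3, 34.0 and 42.8 CPM at 1 dpa. The joint test gave an adjusted p of 0.0296, while the log2 fold change at 3 hpa, 1.13 ± 0.38, missed the threshold (adjusted p = 0.0885). Without the 5 libraries the adjusted p at 3 hpa was 9.55e-04 (range over 14 alternatives 4.07e-04 to 0.424). The joint call was lost without 60 mpa A (0.0553), 60 mpa B (0.0603), 90 mpa B (0.0529), 3 hpa A (0.0974), 3 hpa B (0.181), 3 hpa C (0.0532), 6 hpa A (0.0502), 6 hpa B (0.0581) or 7 dpa B (0.0538). Its copy bmp4.L was not called (joint adjusted p = 0.277, and 0.0139 without the 5 libraries).

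The ligand gene bmp5.L had its highest levels at the end of the series. Its libraries held 1.92, 3.28 and 0 CPM at 0 mpa, 7.32, 9.56 and 6.48 CPM at 3 dpa, and 11.99 and 18.6 CPM in 7 dpa A and B. Library 7 dpa C held 2 reads. All libraries of 3 and 7 dpa lay above the baseline, and no library between 30 mpa and 6 hpa was above 2.92 CPM. The joint adjusted p was 0.00230, and the call was kept without any single library (up to 0.0358). At 7 dpa the log2 fold change of 3.39 ± 1.17 had an adjusted p of 0.0627, and 0.0328 without the 5 libraries (range over 14 alternatives 1.90e-05 to 0.231).

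Expression of bmp7.1.S was at its highest from 1 dpa on. Its libraries stood at 9.37, 5.29 and 18.3 CPM at 0 mpa, at 21.8, 49.1 and 27.8 CPM at 1 dpa and at 29.7, 24.2 and 29.4 CPM at 3 dpa, so that both later groups lay above the baseline. At 7 dpa, A and B stood at 34.5 and 36.8 CPM and C held no read of it. The gene changed over the time course (joint adjusted p = 0.00400, up to 0.0133 without any single library). At 1, 3 and 7 dpa its log2 fold changes of 1.57 ± 0.51, 1.33 ± 0.51 and 1.54 ± 0.53 had adjusted p of 0.0617, 0.0929 and 0.0623. Without 0 mpa C, the highest baseline library, they were 2.16, 1.92 and 2.13, with adjusted p of 0.0291, 0.0396 and 0.0244. Without 7 dpa C the last was 1.72 (adjusted p = 0.0335). The more abundant copy, bmp7.1.L, was not called (joint adjusted p = 0.754, and 0.0382 without the 5 libraries). Its libraries held 97.1, 53.7 and 80.9 CPM at 0 mpa, each above all 3 of the S copy. Means of bmp7.1.L ran from 59.4 CPM at 3 hpa to 87.1 CPM at 3 dpa. In 7 dpa A and B it stood at 119 and 100 CPM, above all 3 baseline libraries, while C held 1 read. The ratio of the copies over all libraries did not pass the permutation test described below (adjusted p = 0.224).

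Neither copy of bmp2, the closest relative of bmp4 among the ligands, changed in the joint test (adjusted p = 0.450 and 0.451). The L copy, chosen after its values were seen, had 4.09, 2.27 and 0.43 CPM at 0 mpa and 10.8, 11.2 and 12.9 CPM at 60 mpa, without overlap. Its log2 fold change of 2.36 ± 0.84 had an adjusted p of 0.294, and 0.0323 without the 5 libraries (range over 14 alternatives 0.0153 to 0.654). The ligands bmp3, bmp6, bmp7.2, bmp10 and bmp15, with bmp5.S, bmpr1b.S and nog.S, made up the 11 BMP members under the filter, with 7 to 74 reads each and at most 1.82 CPM.

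Among the receptors, bmpr2.L, a copy of the type II receptor gene that phosphorylates the type I partner, rose at 1 and 3 dpa. At 0 mpa the libraries held 11.3, 9.08 and 16.4 CPM. At 1 dpa they held 29.0, 59.1 and 27.2 CPM, at 3 dpa 39.5, 46.2 and 36.7 CPM, and at 7 dpa A and B 27.1 and 31.3 CPM. All of these lay above the baseline, while 7 dpa C held no read and 90 mpa C, at 93.7 CPM, held 31 reads. The log2 fold change was 1.64 ± 0.48 at 1 dpa (adjusted p = 0.0295) and 1.73 ± 0.48 at 3 dpa (adjusted p = 0.0117), and the joint adjusted p was 0.00490, up to 0.0131 without any single library. The call at 1 dpa was lost without 0 mpa A (0.1247), 0 mpa B (0.174) or 1 dpa B (log2 fold change 1.197, adjusted p = 0.235), and also under RLE scaling (0.0557) and in DESeq2 (0.0580). That at 3 dpa was lost without 0 mpa A (0.0596) or 0 mpa B (0.0845). Without all 5 libraries both passed, at 1.195 ± 0.33 (adjusted p = 0.0147) and 1.64 ± 0.33 (adjusted p = 2.65e-04). At 90 mpa the log2 fold change of 1.46 ± 0.51 (adjusted p = 0.107) passed without 90 mpa A (1.90, adjusted p = 0.0274) or 90 mpa B (1.95, adjusted p = 0.0288). Libraries 90 mpa A and B held 16.9 and 14.9 CPM, near the highest baseline library, so this change rested on 90 mpa C. Over 14 alternatives the log2 fold change at 90 mpa lay between 0.33 and 1.95 (adjusted p 0.0274 to 0.807). The type I receptor genes bmpr1a.L, bmpr1a.S and bmpr1b.L and the copy bmpr2.S were not called (joint adjusted p = 0.355, 0.792, 0.950 and 0.169).

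The protease gene bmp1.L shares its name but not its function with the ligands: it encodes an enzyme that matures procollagen and, as tolloid, cleaves chordin. Its libraries stood at 91.3, 88.0 and 96.7 CPM at 0 mpa, at 207, 126 and 156 CPM at 1 dpa and at 271, 171 and 244 CPM at 3 dpa. Both later groups lay above the baseline, as did 7 dpa A and B at 194 and 210 CPM, while 7 dpa C held no read of it. At 3 dpa bmp1.L rose by 1.31 ± 0.38 (adjusted p = 0.0159), and its joint adjusted p of 8.04e-04 was at most 0.0102 without any single library. The call at 3 dpa was lost without 0 mpa A (0.0682), B (0.0748) or C (0.0508), or 3 dpa A (0.0936) or C (0.0669), at log2 fold changes of 1.13 to 1.35, and it had an adjusted p of 5.46e-07 without the 5 libraries. At 7 dpa the adjusted p was 0.2004 with and 0.0115 without 7 dpa C (log2 fold change 0.85 and 1.16). Values of bmp1.S moved less, from a mean of 117 CPM at 0 mpa to 82.1 CPM at 3 dpa, with no call.

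Both antagonist genes tested were lower than at 0 mpa at 1 time each. For grem1.L, whose product gremlin binds BMP2, BMP4 and BMP7, libraries held 175, 147 and 204 CPM at 0 mpa and 202, 309 and 200 CPM at 1 dpa. They then held 92.8, 129 and 149 CPM at 3 dpa and 56.1 and 70.0 CPM in 7 dpa A and B, while C held no read. Every library of 7 dpa was below every library of any earlier time. At 7 dpa grem1.L fell by 1.62 ± 0.37 on the log2 scale (adjusted p = 0.00180). This call held in all 14 alternatives, with fold changes between -1.89 and -1.43 and adjusted p up to 0.0261. The joint adjusted p was 0.00559, and 0.0655 without 7 dpa A.

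Reads of nog.L, one copy of noggin, were few: 6, 25 and 17 at 0 mpa (1.44, 6.30 and 3.67 CPM) and 0 in each of the 3 libraries at 90 mpa. Against the floor of 3 counts over those 3 libraries, nog.L was at least 12.5-fold lower at 90 mpa (adjusted p = 0.0446), and at least 12.1-fold without 90 mpa C. The call was lost without any one of the 6 libraries compared, at adjusted p of 0.0529, 0.136 and 0.0684 without 0 mpa A, B and C and of 0.106, 0.144 and 0.0663 without 90 mpa A, B and C. Without 90 mpa C and 7 dpa C it was 0.0671, and without all 5 libraries the call passed (0.0190). Levels at 3 dpa were 3.11, 1.17 and 1.96 CPM, overlapping the baseline. The joint adjusted p was 0.123, but 0.0345 without the 5 libraries and 0.0387 in DESeq2 (range over its alternatives 0.0208 to 0.221). No symbol chrd was found, since the table spells chordin chrd.1 and chrd.2. Of these 3 genes outside the members, chrd.1.L changed (joint adjusted p = 0.00865), from a mean of 3.34 CPM at 0 mpa to no read at 3 dpa.

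**Figure D3:**
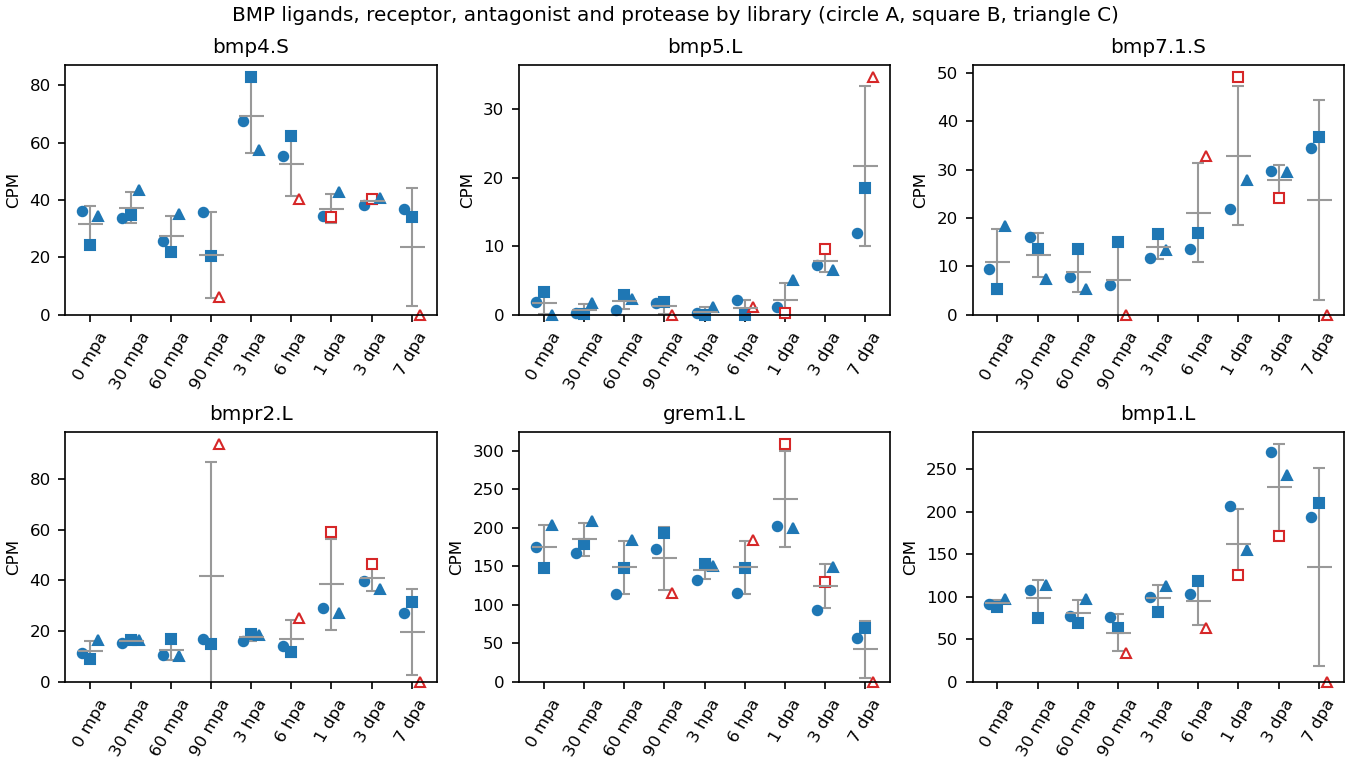
Levels of 6 BMP members in CPM (vertical axis, starting at 0) in each of the 27 libraries by time; grey marks are the mean and SD of 3 libraries, and open red symbols are 7 dpa C, 90 mpa C, 6 hpa C and libraries B of 1 and 3 dpa. The highest values of bmp4.S come at 3 hpa, those of bmp1.L at 3 dpa, bmpr2.L is above its 0 mpa values in all libraries of 1 and 3 dpa, and grem1.L is lowest at 7 dpa; 7 dpa C holds no read of 5 of the 6 genes.

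The Id genes, whose products bind and block basic helix-loop-helix factors and which are direct targets of BMP signalling, included the 1 member called at 4 early times, id2.S. Both copies of id2 changed in the joint test. Those of id3 and id4 missed it in the main fit and passed it under several alternatives given below. The S copy of id2 held 34.4, 26.7 and 34.8 CPM at 0 mpa, 66.9, 70.9 and 92.0 CPM at 30 mpa, and 102, 107 and 77.9 CPM at 60 mpa. It held 54.9, 92.6 and 148 CPM at 90 mpa, 66.0, 95.3 and 72.1 CPM at 3 hpa and 63.8, 69.0 and 106 CPM at 6 hpa. All 15 of these later libraries lay above all 3 at baseline. From 1 dpa on the values came down. They were 42.2, 50.5 and 49.8 CPM at 1 dpa, still above all 3 at baseline. At 3 dpa they were 47.2, 27.5 and 46.5 CPM, overlapping the baseline, and in 7 dpa A and B 17.4 and 34.7 CPM.

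The test called id2.S higher at 4 of these times. The log2 fold change was 1.58 ± 0.37 at 60 mpa (adjusted p = 0.00809), 1.55 ± 0.38 at 90 mpa (adjusted p = 0.00837), 1.28 ± 0.36 at 3 hpa (adjusted p = 0.0285) and 1.30 ± 0.37 at 6 hpa (adjusted p = 0.0285). At 30 mpa it was 1.26 ± 0.36 with an adjusted p of 0.191, and of 0.00103 without the 5 libraries (range over 14 alternatives 2.50e-05 to 0.996). The joint adjusted p was 9.28e-05, at most 0.00140 without any single library. The call at 60 mpa was lost without 0 mpa A (0.0502), 0 mpa B (0.117) or 60 mpa B (0.0574), and that at 90 mpa without 0 mpa B (0.0780) or 90 mpa C (log2 fold change 1.16, adjusted p = 0.0626), and in a fit of only the 6 libraries compared (0.115). The call at 3 hpa was lost without 0 mpa A (0.0928), B (0.193) or C (0.0826), or 3 hpa B (0.206) or C (0.0671). That at 6 hpa was lost without 0 mpa A (0.0966), B (0.187) or C (0.0796), or 6 hpa C (1.06, adjusted p = 0.190), and under RLE scaling (0.0601). Without all 5 libraries the 4 times passed, with adjusted p from 6.40e-06 at 60 mpa to 0.00542 at 6 hpa.

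For id2.L all 3 libraries lay above the baseline at 30, 60 and 90 mpa. Its libraries stood at 121, 98.1 and 118 CPM at 0 mpa, at 166, 191 and 169 CPM at 30 mpa and at 229, 266 and 206 CPM at 60 mpa, without overlap with the baseline. At 90 mpa the libraries stood at 142, 150 and 139 CPM, still above all 3 at baseline. By 3 hpa they stood at 98.8, 117 and 99.7 CPM, within the baseline. The gene changed over the time course (joint adjusted p = 0.0173, 0.0655 without 60 mpa A and 0.116 without 60 mpa B). At 60 mpa the log2 fold change of 1.06 ± 0.35 missed the threshold (adjusted p = 0.194) and passed it without the 5 libraries (adjusted p = 2.64e-04, range over 14 alternatives 4.89e-05 to 0.668).

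Both copies of id3 were lower at 3 hpa than at 0 mpa in every library. For id3.L the values were 310, 225 and 260 CPM at 0 mpa, 406, 378 and 411 CPM at 30 mpa and 154, 158 and 148 CPM at 3 hpa. The order of the 3 times was thus the same in all 9 libraries, with 30 mpa highest and 3 hpa lowest. For id3.S the values were 370, 309 and 365 CPM at 0 mpa, 493, 402 and 528 CPM at 30 mpa and 173, 224 and 148 CPM at 3 hpa, again without overlap. Neither copy passed the joint test in the main fit (adjusted p = 0.0590 and 0.0920). With all libraries kept, both passed it under RLE scaling (0.0210 and 0.0222), in DESeq2 (0.00477 and 0.00974) and without the filter (0.0132 and 0.0132). At 3 hpa the log2 fold changes were -0.79 ± 0.37 and -0.94 ± 0.40 (adjusted p = 0.387 and 0.273). Without the 5 libraries they were -0.78 ± 0.17 and -0.93 ± 0.21, with adjusted p of 0.00111 and 0.00157 (ranges over 14 alternatives 0.00111 to 0.738 and 9.996e-05 to 0.668). The joint test called id3.L without 90 mpa A (0.0199), 90 mpa C (0.0146), 1 dpa B (0.0393), 3 dpa B (0.0496) or 7 dpa C (0.0263), and id3.S without 90 mpa A (0.0132) or 7 dpa C (0.00791).

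Library values of id4.L were 54.8, 42.6 and 37.3 CPM at 0 mpa, 17.0, 21.3 and 22.1 CPM at 3 hpa and 19.3, 18.4 and 16.4 CPM at 6 hpa, all 6 below the baseline. Those of id4.S were 24.5, 21.4 and 29.4 CPM at 0 mpa, 45.1, 46.7 and 36.3 CPM at 90 mpa, 23.07, 23.23 and 18.2 CPM at 3 hpa, and 58.1 and 50.2 CPM in 7 dpa A and B. The S copy thus overlapped its baseline at 3 hpa and lay above it at 90 mpa. Joint adjusted p were 0.0516 for id4.L and 0.0594 for id4.S. The log2 fold change of id4.L was -1.16 ± 0.40 at 3 hpa (adjusted p = 0.114) and -1.30 ± 0.41 at 6 hpa (adjusted p = 0.0632). Without the 5 libraries these had adjusted p of 0.00326 and 0.00756, and id4.S at 7 dpa was 1.13 ± 0.28 higher (adjusted p = 0.00264). The ranges over 14 alternatives were 0.00135 to 0.430, 0.00414 to 0.273 and 0.00207 to 0.597. The joint test called id4.L without any 1 of 7 libraries (lowest 0.0186, without 90 mpa C) and id4.S without 90 mpa C (0.0212), 6 hpa C (0.0453) or 7 dpa C (0.00904). With all libraries kept, id4.L and id4.S passed it under RLE scaling (0.0372 and 0.0140) and in DESeq2 (0.0127 and 5.75e-04). Without the filter id4.L passed (0.0336) and id4.S did not (0.0960).

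**Figure D4:**
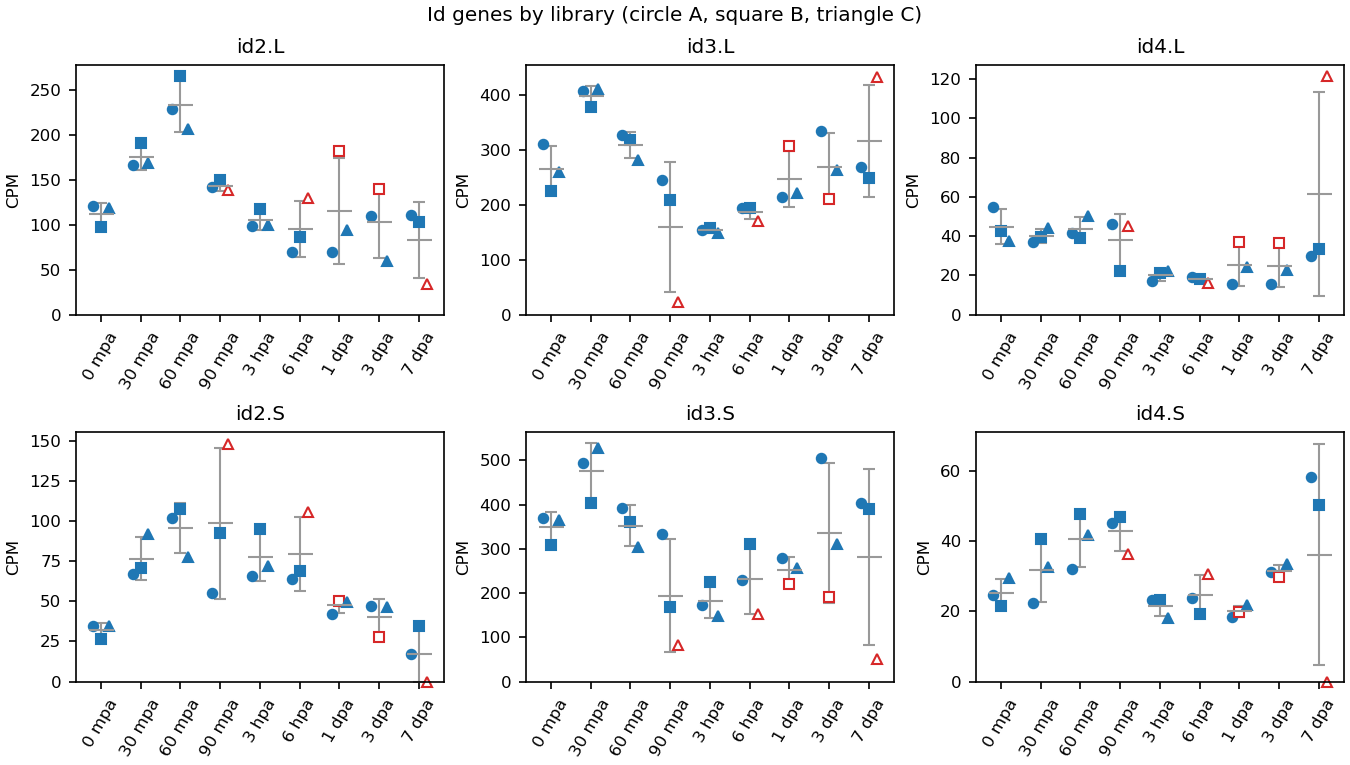
Levels of the 6 Id genes in CPM (vertical axis, starting at 0) in each of the 27 libraries by time, L copies above and S copies below; grey marks are the mean and SD of 3 libraries, and open red symbols are 7 dpa C, 90 mpa C, 6 hpa C and libraries B of 1 and 3 dpa. The S copy of id2 lies above its 0 mpa values from 30 mpa to 1 dpa, while id3.L, id3.S and id4.L have their 3 hpa libraries below all 3 at 0 mpa.

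Other genes of the BMP pathway, from a list of 63 with 48 tested, gave 16 calls in the joint test, where 15.8% of all genes changed. In the order of the times from 60 mpa to 7 dpa, 1, 4, 5, 5, 8, 7 and 3 of the 48 were higher than at 0 mpa, against the same shares of all genes. From 90 mpa to 6 hpa 1, 3 and 1 were lower, against 0.754%, 0.31% and 0.328% of all genes. Both copies of smad4.2, a co-Smad shared with the TGF-beta branch, rose: smad4.2.S by 3.03 ± 0.41 at 3 dpa (adjusted p = 1.41e-07) and smad4.2.L by 2.30 ± 0.41 (adjusted p = 3.70e-05). The homeobox genes msx1.S and msx2.S, which respond to BMP in many tissues, were also among the calls. For msx1.S there was a rise of 1.27 ± 0.36 at 6 hpa (adjusted p = 0.0250) and of 1.70 ± 0.36 at 1 dpa (adjusted p = 0.00126), with means of 195 CPM at 0 mpa and 635 CPM at 1 dpa. Expression of msx2.S fell by 1.58 ± 0.36 at 3 hpa (adjusted p = 0.00271), from a mean of 111 CPM to 36.9 CPM, and stood at 186 CPM at 1 dpa (log2 fold change 0.75 ± 0.35, adjusted p = 0.247).

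The balance between the copies of a gene was compared over the 9 times for the 15 pairs with both copies past the filter, by a permutation test of the log2 ratio of L to S (CPM + 1) in 27 libraries. No pair passed after adjustment over the 15 pairs, and 3 had an unadjusted p under 0.05 (id2 0.00406, bmp4 0.0287, fgfr1op2 0.0409). For id2 the adjusted p was 0.0609. Its ratio was 1.79 ± 0.05 (SD, n = 3) at 0 mpa, 1.196 ± 0.29 at 30 mpa, 0.44 ± 0.14 at 3 hpa and 0.25 ± 0.10 at 6 hpa. Every library of 30 mpa to 6 hpa lay below every library of 0 mpa.

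Without 90 mpa C and 7 dpa C, where a single read shifts the ratio, 5 pairs passed the permutation test. They were bmp1 (adjusted p = 7.50e-04), fgfr2 (0.0234), bmp4 (0.0408), id2 (0.0408) and bmp7.1 (0.0456). The ratio of bmp1 was -0.34 ± 0.08 at 0 mpa, 1.12 ± 0.15 at 1 dpa and 1.46 ± 0.37 at 3 dpa, so that the L copy went from below to above the S copy on this scale. For bmp4 the ratio was -0.40 ± 0.44 at 0 mpa, -1.42 ± 0.32 at 3 hpa and -1.43 ± 0.44 at 3 dpa. For fgfr2 it was 1.07 ± 0.22 at 0 mpa and 0.43 ± 0.06 at 3 hpa.

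**Figure D5:**
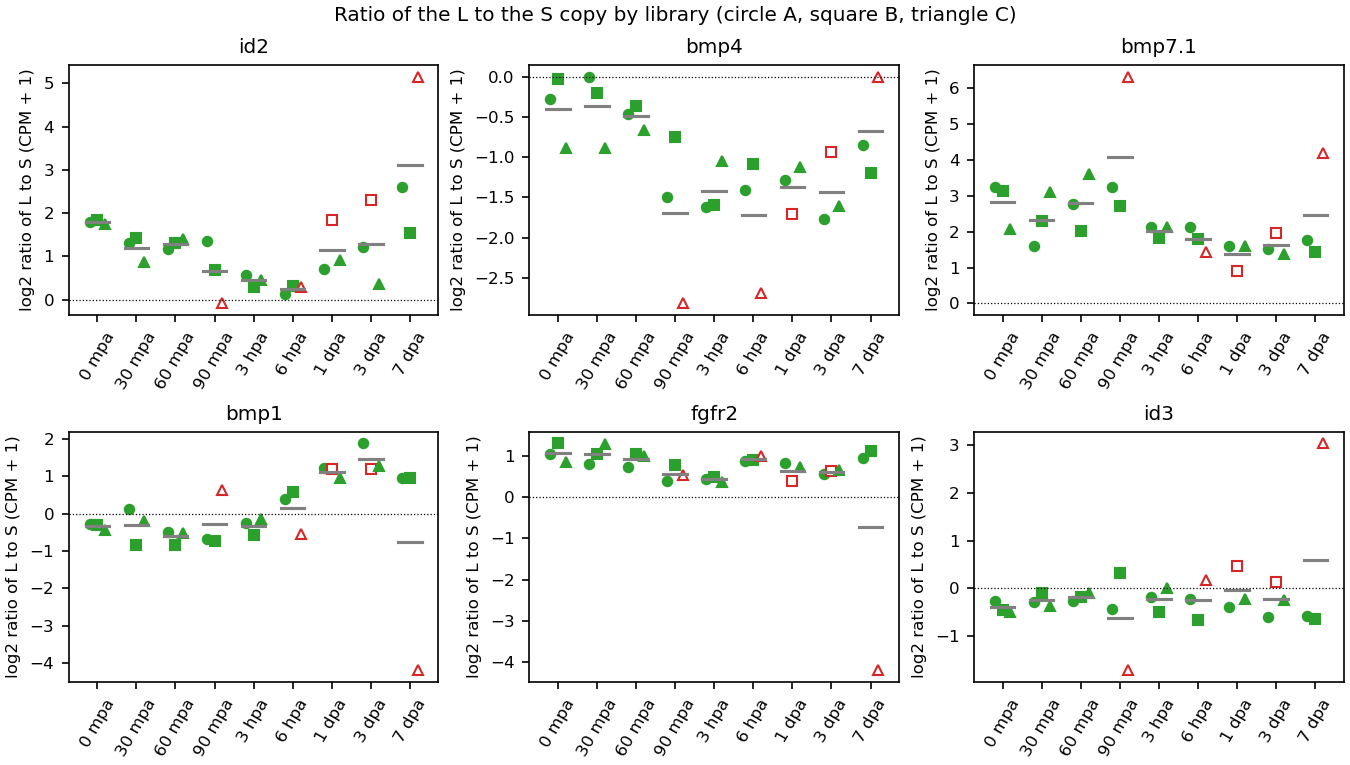
Log2 ratio of the L to the S copy, each as CPM + 1, for 6 pairs (vertical axes) in each of the 27 libraries by time; grey bars are means of 3 libraries, dotted lines mark equal levels, and open red symbols are 7 dpa C, 90 mpa C, 6 hpa C and libraries B of 1 and 3 dpa. The id2 ratio falls from near 1.79 at 0 mpa to 0.25 at 6 hpa, that of bmp1 is 1.12 at 1 dpa and 1.46 at 3 dpa, and 7 dpa C lies far from A and B of its time in most panels.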

How the data were processed

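The authors deposited whole-number read counts per gene for 27 libraries; these counts were used as deposited. Per the labels' protocols, libraries were made from 100 ng of total RNA with a Lexogen SENSE kit and sequenced as read pairs of 76 bases. Tools listed without a role in the submitters' processing notes are R 4.1.0, DESeq2 1.32.0, HTSeq 0.6.1p1 and STAR 2.7.9a. Build, annotation and strandedness of counting are not stated there or in the labels, and reads of genes that overlap, antisense ones included, cannot be separated. A deposited table of normalized values was not used. Counts were tested with edgeR 4.0.16 in R 4.3.3 (quasi-likelihood, robust, TMM scaling, filterByExpr by time, 1 fit over 27 libraries), each later time against 0 mpa, 3 against 1 dpa, 7 against 3 dpa, and the 9 times in a joint test. The Benjamini-Hochberg adjustment ran over all 22268 genes, with calls at 0.05. Fold changes use a prior count of 0.125; levels are CPM with TMM factors, and floors cover counting error only. Copy ratios used 100000 permutations and a pseudocount of 1 CPM. Named members had a call and at least 5 CPM at their highest time, with up to 4 genes per pathway list by smallest joint p; others are said to be chosen after their values were seen, as are id3, id4, fgfr2.S, fgfr3.L, nog.L and fgf8.S. Members, lists and tests were chosen with earlier results of these data known. The fit and the copy test were checked on simulated data. DESeq2 1.42.0, RLE scaling, no filter, a replicate block and left-out libraries were the alternatives.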

Additional observations from a re-analysis of the deposited data

How the results depend on the processing

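No result changed direction under any alternative. The counts of members called were 2 FGF and 8 BMP in the joint test and, from 30 mpa to 7 dpa against 0 mpa, 0, 1, 2, 1, 2, 1, 3 and 1. Of all genes these tests called 15.8%, then 0.377%, 1.15%, 3.38%, 3.43%, 3.66%, 4.56%, 9.22% and 7.94%. RLE scaling gave 2 at 7 dpa, and shifted the median of all genes by -0.105, -0.104, -0.145 and -0.125 at 60 mpa, 3 hpa, 6 hpa and 1 dpa; its calls over all genes were 625 higher and 151 lower at 6 hpa (TMM 741 and 73), 580 and 502 at 1 dpa (TMM 665 and 351) and 42 and 104 for 3 against 1 dpa (TMM 29 and 132). At 7 dpa 8.19% of all genes were called under RLE scaling. The joint test under RLE scaling called 12 BMP members, against 16.2% of all genes. Without the filter there were 4 FGF and 11 BMP members in the joint test, 3 at 1 dpa and 3 at 7 dpa (all genes 15.3%, 3.94% and 6.31%). DESeq2 gave 14 BMP, 3 at 3 hpa and 2 at 7 dpa (all genes 21%, 3.92% and 9.81%). Without 90 mpa C and 7 dpa C there were 5 FGF and 13 BMP members, 1, 2, 1, 6 at 30 mpa to 3 hpa, 4, 5, 5 at 1 to 7 dpa, 1 for 3 against 1 dpa, and 5 copy pairs. In the same order the shares of all genes were 19.4%, then 0.468%, 1.59%, 3.22%, 5.18%, 8.3%, 12.5%, 9.69% and 1.63%. Without the 5 libraries there were 4 FGF and 16 BMP members, 1, 3, 4, 8, 5, 4, 6 and 7 at the 8 times and 1 for 7 against 3 dpa. The calls over all genes rose too, to 27.2%, then 0.911%, 3.19%, 8.15%, 8.94%, 6.94%, 8.7%, 15.5%, 15.4% and 1.52%. Without the filter and the 5 libraries together, an alternative chosen after seeing the data, there were 4 and 16, then 1, 3, 4, 8, 5, 5, 5 and 6, and 1 for 7 against 3 dpa. Here 24% of all genes were called jointly, then 1.24%, 3.25%, 7.14%, 7.61%, 5.98%, 7.5%, 12.5%, 12.3% and 1.84%. Fits of only the 6 libraries compared gave 1, 3, 0 and 7 from 30 mpa to 3 hpa and 3 at 7 dpa, where 0.738%, 2.83%, 1.34%, 13.4% and 11.7% of all genes were called. Leaving out each library in turn gave 1 to 4 FGF and 6 to 12 BMP members, 0 to 1 at 60 mpa, 0 to 3 at 90 mpa, 0 to 1 at 3 hpa, 0 to 1 at 6 hpa, 0 to 2 at 1 dpa, 0 to 2 at 3 dpa, 1 to 4 at 7 dpa and 0 to 2 copy pairs. The joint test then called 12.9% to 17.8% of all genes. The shares of all genes against 0 mpa were 0.736% to 1.02% at 60 mpa and 1.66% to 5.22% at 90 mpa. They were 2.27% to 2.59% at 3 hpa, 2.02% to 3.15% at 6 hpa and 2.16% to 3.52% at 1 dpa. At 3 and 7 dpa they were 5.53% to 6.71% and 4.71% to 7.67%. Calls over all genes were thus also lost at most times when 1 library was left out. Deviations from the time means were correlated between libraries of different times. For pairs of the same letter r ran from -0.152 to 0.227 (median 0.00576), with 13 of 108 over 0.1. For different letters r ran from -0.252 to 0.223 (median -0.00193), with 10 of 216 over 0.1. This check cannot decide whether the letters pair some of the libraries. A replicate block gave 2 FGF and 9 BMP members, against 15.7% of all genes. Depth sets a limit, as 27 members had too few reads for a test. In 7 dpa C 1 read is 17.3 CPM under a TMM factor of 3.02, against 1.31 and 1.30 for 7 dpa A and B. That factor was estimated on 19187 counts, so the CPM of 7 dpa C are uncertain in scale.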
